A study of Homo sapiens with 24 samples.

Results

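The genes described here encode the SR proteins, the related TRA2 proteins, the CLK kinases that phosphorylate them, and the hnRNPs. Members were all protein-coding genes whose GENCODE 29 symbol is SRSF with a number, CLK1 to CLK4, TRA2A, TRA2B, or a symbol that begins with HNRNP. The rule gave 45 genes out of 57500 listed in the files, of which 19737 are protein-coding: 12 SR proteins, 2 TRA2 proteins, 4 CLK kinases and 27 hnRNPs. The rule used names and no measured value, and all 45 were listed in the files.

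Most human genes are copied into RNA with introns that the spliceosome removes, and the choice of exons depends on proteins that bind the RNA beside it. SR proteins bind exons through RNA recognition domains and draw in the spliceosome through a tail rich in arginine and serine, whose phosphorylation by CLK and SRPK kinases sets where they sit and how active they are, while hnRNPs package the nascent RNA and often oppose exon use. Many of these genes adjust their own output through exons or introns that expose the transcript to decay, and in cells at high temperature SR proteins lose phosphate, splicing slows, and CLK transcripts that had kept introns are spliced.

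FaDu and SAS are established human cell lines from squamous carcinomas of the hypopharynx and the tongue, grown here as spheroids, which are compact balls of cells. Spheroids of each type were left untreated (Control), irradiated (RT, 7 Gy in FaDu but 10 Gy in SAS), heated to 42.5 °C for 60 min (HT), or heated and then irradiated (HT+RT). Each of the 8 groups had 3 replicates, which the study describes as independent experiments, and RNA was taken 0.5 h after treatment, giving 24 libraries. Total counts per library ran from 15203484 to 29452514, with a median of 18378943.5. The radiation dose differed between the spheroid types, so dose and type cannot be told apart in any comparison of RT between them.

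The labels were checked against marker genes. All 8 squamous epithelial markers were at 1 CPM (counts relative to the library's size, defined in the next paragraph) or more in each group, KRT17 being the most abundant. The 7 heat shock genes used to check the heat label, HSPA6, HSPA1A, HSPA1B, DNAJB1, HSPH1, BAG3 and HSPA8, all rose in the 6 comparisons of heated with unheated spheroids of a type, with HSPA6 moving furthest after HT (log2 fold changes of 13.31 in FaDu and 11.36 in SAS). Of 6 fibroblast markers, only COL1A1 reached 1 CPM in any group, and it moved with heat in SAS spheroids, where the summed level of the 6 was 1.90, 1.65 and 2.42 CPM in the control libraries, 2.48, 1.89 and 2.33 in RT, 31.1, 17.0 and 24.9 in HT and 25.0, 24.6 and 24.3 in HT+RT libraries. In FaDu spheroids that sum was 36.1, 42.9 and 47.6 CPM in controls, 34.3, 44.6 and 47.8 in RT, 50.6, 48.4 and 64.0 in HT and 45.2, 57.1 and 65.8 in HT+RT libraries. COL1A1 rose by a log2 fold change of 4.18 after HT in SAS spheroids, LUM, DCN and COL3A1 were each at 0 in at least 1 group, and their part in the results for splicing genes was not tested. Of 5 leukocyte markers, only CD68 reached 1 CPM, with group means from 1.54 to 2.32 CPM, and CDH5 was the most abundant of 4 endothelial markers, at 3.44 to 16.5 CPM. PTPRC, CD3E, CD79A and LYZ were each at 0 in at least 1 group, and KDR in all groups but FaDu HT and HT+RT. After HT, edgeR and DESeq2 each called 0 of the 1 leukocyte marker tested in either type (0 at an unadjusted p under 0.05), 0 of 3 endothelial markers in FaDu (0 unadjusted) and 0 of 2 in SAS spheroids (1 unadjusted), and not COL1A1 in FaDu spheroids (1 unadjusted), where DESeq2 called it higher after HT+RT. After HT, 0 of 8 squamous markers rose and 1 fell in FaDu spheroids (TP63, -0.50; 2 at an unadjusted p under 0.05 by edgeR and, by DESeq2, 1 up), and 2 rose and 1 fell in SAS spheroids (KRT6A, 0.85; KRT17, 0.23; SFN, -0.40).

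Levels are given as CPM, in which each library's counts are divided by its size after edgeR's TMM factors, computed over all 24 libraries. Differences between groups were tested on all genes with enough counts to pass filterByExpr in edgeR, with edgeR's quasi-likelihood test and Benjamini-Hochberg adjustment over those genes. A member is said to have risen or fallen (been called) at an adjusted p under 0.05, and to be altered when its absolute log2 fold change also exceeded 1. Where shares of members and of all genes stand side by side, the sets were not matched for count level. The log2 fold change in parentheses is treated minus untreated, or FaDu minus SAS for the controls, and its standard error (SE) follows. The FaDu libraries numbered 1 stood apart from those numbered 2 and 3: the chi-square per gene between libraries of a group was 15.1 to 22.0 for pairs with replicate 1 and 3.51 to 5.09 between replicates 2 and 3. Counts of FaDu members are therefore given with and without replicate 1, an alternative chosen after seeing the data. Same-numbered libraries also deviated together in 10 of 13 comparisons, though FaDu libraries 2 and 3 did so across numbers too, and counts from a model with a block for each number (the replicate block) stand beside the others.

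The counts are per gene, so a productive transcript cannot be separated from one with a retained intron or an exon that leads to decay. In the GENCODE 29 annotation, 31 of the 45 members (68.9%) have a transcript marked for nonsense-mediated decay, including all 12 SR proteins, 2 of 2 TRA2 genes and 3 of 4 CLK genes (CLK2 has none), against 5403 of the 12601 protein-coding genes tested in SAS spheroids after HT (42.9%). Transcripts marked as retained introns are listed for 28 members (62.2%), against 57.7% of those genes. Both member shares are over all 45 members, tested or not, while the shares beside them are over tested genes only. In bulk RNA from whole spheroids, fewer cells of a kind and less RNA per cell cannot be told apart.

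The files do not say how reads were assigned to near-identical genes or whether strand was used, and several members share sequence. SRSF8 is a retrocopy of SRSF2, HNRNPA1L2 and HNRNPA1P48 are copies of HNRNPA1, and HNRNPUL2-BSCL2 is a readthrough gene that overlaps 44.1% of the exon bases of HNRNPUL2. HNRNPA1 has 74 annotated pseudogenes in the files, whose counts came to 0.313% of its own, HNRNPA3 has 16 (0.572%) and HNRNPC has 9 (0.412%). On the opposite strand, MFSD11 covers 36.7% of the exon bases of SRSF2, GATC 46.2% of those of SRSF9 and COX20 15.6% of those of HNRNPU, and on the same strand AC015813.2, with 3 counts in all libraries, covers 56.6% of SRSF1. HNRNPCL1, HNRNPCL2, HNRNPCL3 and HNRNPCL4 had 19, 4, 0 and 5 counts summed over all libraries and were never tested. SRSF12 passed the filter in the FaDu fits, the comparison of controls and the interactions, but not within SAS spheroids, so 41 members were tested in FaDu and 40 in SAS spheroids.

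More of these genes were called after heat than after radiation, as was so for all genes (0.0322% of which were called after RT in FaDu and 0.0749% in SAS spheroids), and CLK1 had the largest log2 fold change of the members after HT in both types. After HT, 5 members rose and 3 fell of 41 tested in FaDu spheroids (12.2% and 7.32%), against 7.95% and 9.69% of all genes tested, and 1 was altered (2.44%, against 4.97%). In SAS spheroids 11 rose and 5 fell of 40 (27.5% and 12.5%), against 12.2% and 11.4% of all genes, and 3 were altered (7.5%, against 6.03%). With total-count scaling the balance turned, to 2 up and 7 down (6.31% and 15% of all genes) in FaDu and 7 up and 9 down (9.61% and 18.5% of all genes) in SAS spheroids. The FaDu count of 8 was 19 with the replicate block, where 32.7% of all genes were called in either direction, and 16 without FaDu replicate 1 (28.7% of all genes; 17.6% with all libraries and no block), in which all 8 remained, but 4, 2, 5 and 4 without control replicate 2, control replicate 3, HT replicate 2 and HT replicate 3. The altered count in FaDu was 0 without control replicate 2, control replicate 3 or HT replicate 3. The members gained with the block were SRSF10, SRSF2, SRSF5, SRSF6, SRSF7, TRA2A, HNRNPA0, HNRNPA1, HNRNPA2B1, HNRNPA3 and HNRNPF, and those gained without replicate 1 were SRSF2, TRA2A, TRA2B, HNRNPA0, HNRNPA1, HNRNPA2B1, HNRNPAB and HNRNPF. In SAS spheroids the count of 16 was 10 without control replicate 2.

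HT+RT against Control gave a like picture, and it shares its control libraries with the HT comparison. In FaDu spheroids 5 members rose and 3 fell, against 9.52% and 9.78% of all genes, and 1 was altered (5.72% of all genes). In SAS spheroids 11 rose and 3 fell, against 13.6% and 11.5% of all genes, and 3 were altered (6.36% of all genes). With total-count scaling there were 4 up and 7 down (7.74% and 16.9% of all genes) in FaDu and 9 up and 10 down (11% and 19.7% of all genes) in SAS spheroids. The FaDu count of 8 was 16 with the block (32.9% of all genes) and 15 without replicate 1 (31.7% of all genes, against 19.3% as first fitted), the 8 included, and 5 without HT+RT replicate 3; the SAS count of 14 was 21 with the block (35.5% of all genes in place of 25.1%). The block added SRSF2, SRSF5, SRSF7, TRA2B, HNRNPAB, HNRNPF, HNRNPL and HNRNPUL2 in FaDu and SRSF4, SRSF7, HNRNPA3, HNRNPAB, HNRNPC, HNRNPH1 and HNRNPUL2 in SAS spheroids, and leaving out replicate 1 added SRSF2, SRSF7, TRA2B, HNRNPAB, HNRNPF, HNRNPL and HNRNPUL2.

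Heat was also measured in libraries that the HT comparison does not use, as HT+RT against RT. Here 5 FaDu members rose and 6 fell, against 9.37% and 9.9% of all genes, and in SAS spheroids 10 rose and 4 fell, against 14.1% and 13.8%. CLK1 was altered in FaDu spheroids (5.39% of all genes were), and CLK1 and CLK4 in SAS spheroids (6.6%). Of the 5 FaDu members that rose after HT, 4 rose here too (not HNRNPDL), as did 8 of the 11 in SAS spheroids (not SRSF5, HNRNPA1L2 or HNRNPDL). All 3 FaDu members and 4 of 5 SAS members (not SRSF1) that fell after HT fell here too. With total-count scaling the counts were 3 up and 13 down (7.27% and 16.7% of all genes) in FaDu and 7 up and 12 down (11.2% and 21% of all genes) in SAS spheroids. With the block they were 17 and 22 in place of 11 and 14, while the share of all genes called was 31% in place of 19.3% for FaDu and 38.9% in place of 27.8% for SAS spheroids, and without replicate 1 the FaDu count was 18 (31.6% of all genes), with all 11 kept. The block added SRSF2, SRSF4, HNRNPAB, HNRNPDL, HNRNPUL2 and HNRNPUL2-BSCL2 in FaDu and SRSF1, SRSF4, SRSF6, HNRNPA3, HNRNPR, HNRNPU, HNRNPUL1 and HNRNPUL2 in SAS spheroids, and leaving out replicate 1 added SRSF4, SRSF6, TRA2B, HNRNPAB, HNRNPH3, HNRNPUL2 and HNRNPUL2-BSCL2. The FaDu count was 7, 4, 5 and 3 without RT replicate 2, RT replicate 3, HT+RT replicate 2 and HT+RT replicate 3.

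**Figure D1:**
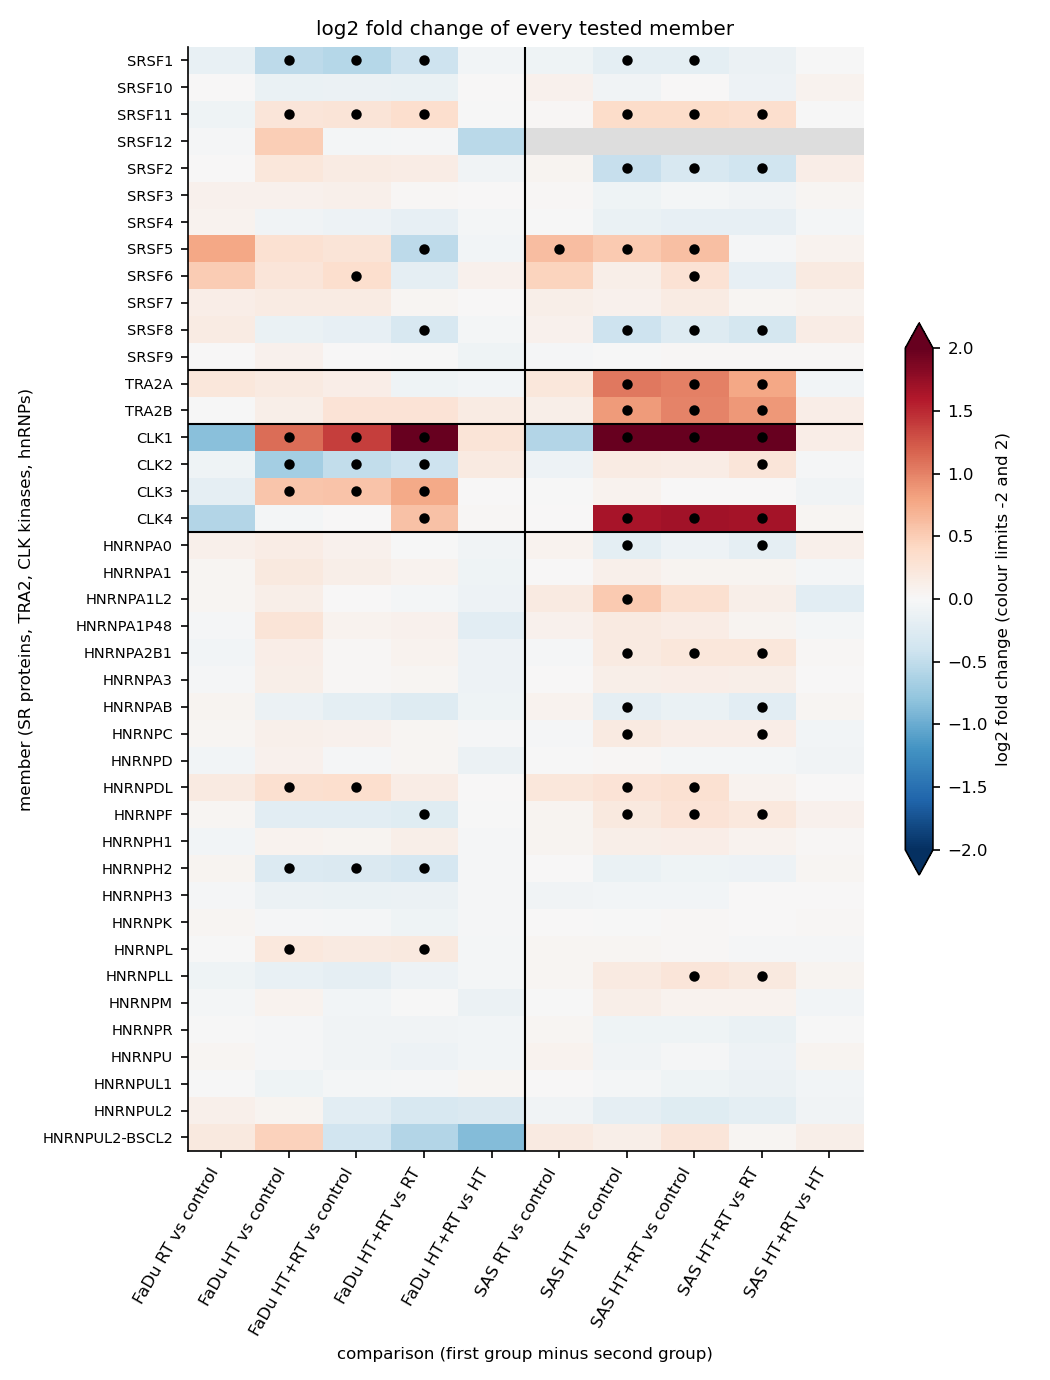
Log2 fold change of the 41 members tested in each of 10 treatment comparisons, ordered by family, with a dot where the adjusted p was under 0.05 (edgeR quasi-likelihood test, Benjamini-Hochberg); the colour scale is limited at 2 in each direction and grey marks members not tested. CLK1 is the deepest cell in each heat comparison of SAS spheroids and the RT columns hold a single dot, for SRSF5.

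CLK1, a nuclear kinase that phosphorylates the tails of SR proteins, rose with heat in both spheroid types. In FaDu spheroids CLK1 stood at 27.0, 20.5 and 28.8 CPM in Control, 14.6, 13.7 and 14.2 in RT, 44.2, 38.2 and 79.6 in HT and 45.9, 70.2 and 79.0 in HT+RT libraries. In SAS spheroids CLK1 stood at 36.5, 42.0 and 43.7 CPM in Control, 24.4, 28.6 and 28.4 in RT, 262, 298 and 311 in HT and 311, 309 and 329 in HT+RT libraries. Every heated library was above every unheated library of its type, and within FaDu spheroids the libraries of HT replicate 3 and of HT+RT replicates 2 and 3 were the highest. CLK1 rose after HT by a log2 fold change of 1.12 in FaDu (SE 0.26, adjusted p = 0.0203) and 2.87 in SAS spheroids (SE 0.09, adjusted p = 4.87e-10; edgeR quasi-likelihood test, Benjamini-Hochberg). Against RT, the difference after HT+RT was 2.21 in FaDu (SE 0.18, adjusted p = 0.00016) and 3.58 in SAS spheroids (SE 0.07, adjusted p = 3.1e-11; edgeR quasi-likelihood test, Benjamini-Hochberg), and against Control it was 1.38 and 3.01. The FaDu call after HT was lost without FaDu control replicate 2 or 3 (0.99 to 1.21); without FaDu HT replicate 3 it was kept, at 0.72. FaDu HT replicate 3 and HT+RT replicates 2 and 3 were also the highest FaDu libraries for the heat shock genes HSPH1, at 516, 507 and 847 CPM in HT and 648, 847 and 872 in HT+RT libraries, and BAG3, at 279, 369.6 and 539 and 424, 719.5 and 727 CPM, and their part in the CLK1 values was not tested.

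CLK4, the closest relative of CLK1, rose with heat in SAS spheroids and had the fewest counts of the kinases. In SAS spheroids CLK4 stood at 17.4, 22.4 and 18.3 CPM in Control, 20.7, 21.9 and 15.6 in RT, 52.8, 65.0 and 60.1 in HT and 56.7, 64.3 and 59.3 in HT+RT libraries. In FaDu spheroids CLK4 stood at 11.2, 11.9 and 14.6 CPM in Control, 7.55, 8.95 and 8.63 in RT, 11.3, 11.8 and 13.1 in HT and 10.9, 12.0 and 14.2 in HT+RT libraries. In SAS spheroids all heated libraries were above all unheated ones, while in FaDu spheroids the heated libraries overlapped the controls and lay above the RT libraries. In SAS spheroids CLK4 rose by 1.65 after HT (SE 0.11, adjusted p = 7.15e-07), by 1.69 after HT+RT, and by 1.67 against RT (SE 0.11, adjusted p = 9.61e-07; edgeR quasi-likelihood test, Benjamini-Hochberg). The FaDu log2 fold change was -0.04 after HT (SE 0.13, adjusted p = 0.893; edgeR quasi-likelihood test, Benjamini-Hochberg) and 0.00 after HT+RT, a value whose sign differs between settings, and 0.58 for HT+RT against RT (adjusted p = 0.0194). That last FaDu call was lost without FaDu RT replicate 3, or FaDu HT+RT replicate 2 or 3 (0.47 to 0.60).

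CLK2, another SR protein kinase, fell with heat in FaDu spheroids. In FaDu spheroids CLK2 stood at 59.6, 58.8 and 60.6 CPM in Control, 55.0, 54.4 and 58.5 in RT, 50.1, 26.6 and 33.2 in HT and 50.2, 35.2 and 39.9 in HT+RT libraries. In SAS spheroids CLK2 stood at 37.4, 45.6 and 43.3 CPM in Control, 38.4, 41.7 and 36.9 in RT, 50.2, 43.6 and 44.1 in HT and 42.4, 46.5 and 45.7 in HT+RT libraries. The heated FaDu libraries lay below the unheated ones, with replicate 1 the highest of the heated ones, and the SAS libraries overlapped after HT. CLK2 fell with a log2 fold change of -0.68 after HT in FaDu spheroids (SE 0.19, adjusted p = 0.0359; edgeR quasi-likelihood test, Benjamini-Hochberg), -0.50 after HT+RT, and -0.41 against RT. In SAS spheroids the values were 0.16 after HT, 0.14 after HT+RT and 0.24 against RT, the last a call (adjusted p = 0.0326; edgeR quasi-likelihood test, Benjamini-Hochberg) that DESeq2, total-count scaling, the lack of a filter and the fit of all libraries did not make. The FaDu calls were lost after HT without any 1 library other than FaDu HT replicate 1 (-0.69 to -0.49), after HT+RT without FaDu control replicate 2 or 3, or FaDu HT+RT replicate 3 (-0.50 to -0.46), and against RT without any 1 library other than FaDu HT+RT replicate 1 (-0.43 to -0.31). The SAS call was lost without SAS RT replicate 1 or 3, or SAS HT+RT replicate 2 or 3 (0.20 to 0.24).

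CLK3 rose with heat in FaDu spheroids. In FaDu spheroids CLK3 stood at 32.0, 25.0 and 27.4 CPM in Control, 27.9, 23.2 and 23.1 in RT, 50.5, 31.0 and 40.7 in HT and 46.1, 38.3 and 39.4 in HT+RT libraries. In SAS spheroids CLK3 stood at 42.5, 48.0 and 44.4 CPM in Control, 48.7, 43.8 and 41.4 in RT, 47.6, 43.3 and 47.6 in HT and 46.5, 46.1 and 39.0 in HT+RT libraries. After HT, FaDu replicate 2 overlapped the highest control library, the HT+RT libraries lay above all unheated FaDu libraries, and the SAS groups overlapped. CLK3 rose by 0.56 after HT in FaDu spheroids (SE 0.17, adjusted p = 0.049), by 0.57 after HT+RT, and by 0.75 against RT (adjusted p = 0.0019; edgeR quasi-likelihood test, Benjamini-Hochberg). In SAS spheroids its log2 fold changes were 0.07, 0.01 and 0.01, and the first pair turned negative with total-count scaling (-0.0088 and -0.0737). The FaDu call after HT was lost with total-count scaling and without FaDu control replicate 2 or 3, or FaDu HT replicate 1 or 3 (0.39 to 0.55).

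**Figure D2:**
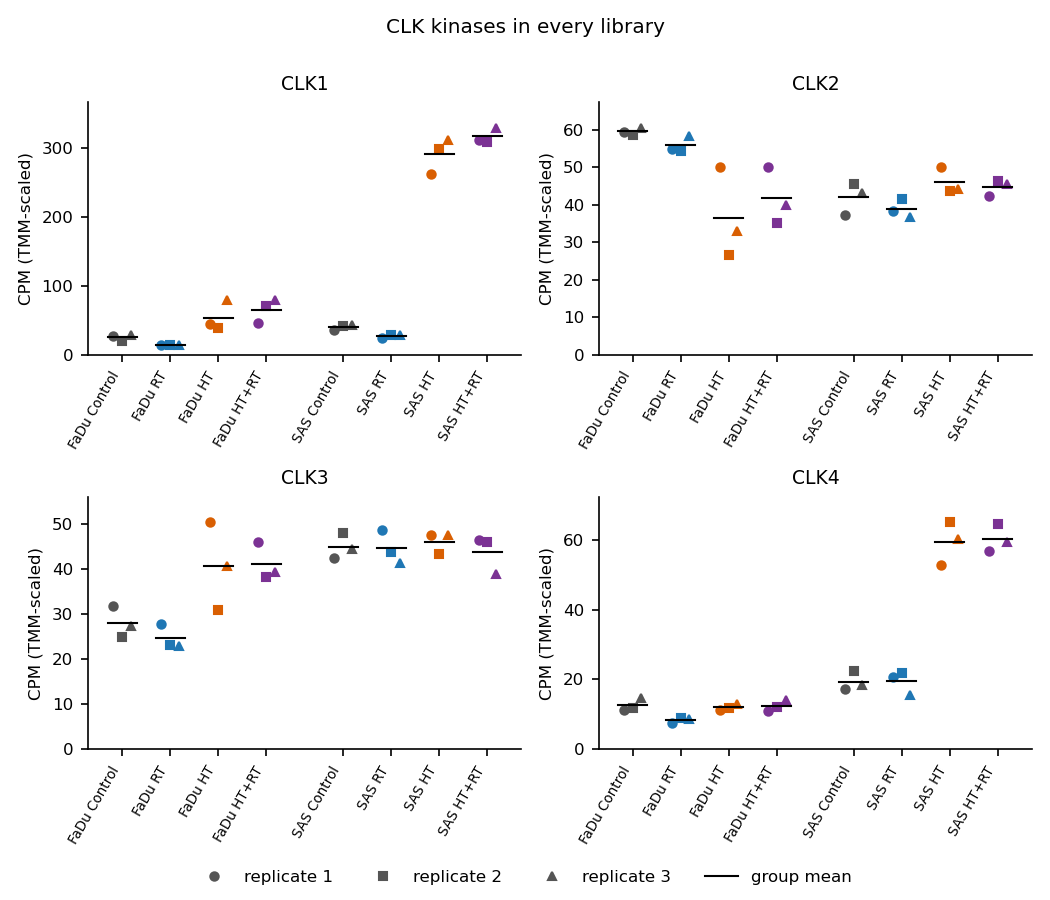
CPM of CLK1, CLK2, CLK3 and CLK4 in each of the 24 libraries, by group, with a bar at the mean of 3 and a marker shape for each replicate number. CLK1 and CLK4 in heated SAS spheroids stand above all other groups, and CLK2 is lower in heated than in unheated FaDu spheroids.

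RefSeq promoter sequences (GRCh38.p14, 250 bases before to 50 bases after the start) were available for 40 of 45 members; those of HNRNPA1, HNRNPA1P48, HNRNPCL3, SRSF2 and TRA2A were missing. The promoters of CLK1 (chr2:200864609-200864908, minus strand), CLK4 (chr5:178627001-178627300, minus strand) and TRA2B (chr3:185937965-185938264, minus strand) are shown because these genes rose most in heated SAS spheroids among the members with a sequence, and that of HNRNPA2B1 (chr7:26200697-26200996, minus strand) because it holds both heat shock element letters searched. Capitals mark matches to the heat shock element letters GAANNTTC and TTCNNGAA and to the cAMP response element TGACGTCA.
CLK1: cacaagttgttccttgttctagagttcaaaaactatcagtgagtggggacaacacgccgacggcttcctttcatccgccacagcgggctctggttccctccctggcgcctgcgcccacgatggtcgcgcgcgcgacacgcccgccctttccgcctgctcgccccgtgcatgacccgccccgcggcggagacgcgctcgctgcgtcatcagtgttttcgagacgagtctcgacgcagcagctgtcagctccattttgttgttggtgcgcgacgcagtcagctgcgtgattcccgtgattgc
CLK4: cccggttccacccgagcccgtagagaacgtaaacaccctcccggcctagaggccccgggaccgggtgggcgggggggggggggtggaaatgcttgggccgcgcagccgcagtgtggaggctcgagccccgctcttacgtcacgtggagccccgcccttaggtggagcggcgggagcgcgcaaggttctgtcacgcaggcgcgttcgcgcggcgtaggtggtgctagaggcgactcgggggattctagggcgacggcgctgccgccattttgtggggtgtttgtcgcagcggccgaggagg
TRA2B: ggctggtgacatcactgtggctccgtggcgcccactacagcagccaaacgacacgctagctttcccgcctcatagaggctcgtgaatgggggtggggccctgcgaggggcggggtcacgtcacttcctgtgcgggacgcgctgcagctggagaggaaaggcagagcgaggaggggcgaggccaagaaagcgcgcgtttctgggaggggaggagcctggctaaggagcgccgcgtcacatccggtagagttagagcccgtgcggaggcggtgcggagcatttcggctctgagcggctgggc
HNRNPA2B1: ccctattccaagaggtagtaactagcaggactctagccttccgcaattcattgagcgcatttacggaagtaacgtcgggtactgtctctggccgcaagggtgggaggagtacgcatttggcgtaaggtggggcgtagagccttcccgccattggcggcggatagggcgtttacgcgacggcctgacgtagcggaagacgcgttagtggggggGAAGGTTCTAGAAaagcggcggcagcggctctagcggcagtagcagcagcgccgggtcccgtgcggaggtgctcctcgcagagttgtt

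Each motif was searched on both strands, and the heat shock element letters read the same on either strand. GAANNTTC was found in 3 of 40 member promoters (HNRNPA2B1, HNRNPC and SRSF8) and in 6.8% of 35116 promoters, and TTCNNGAA in 1 (HNRNPA2B1) and 7.7%. In HNRNPA2B1 both lay together, as GAAGGTTC 38 bases and TTCTAGAA 33 bases before the start and sharing 3 bases, HNRNPC had GAAGATTC 47 bases before it, and SRSF8 had GAATTTTC 186 bases before it. TGACGTCA was found in 0 of 40 and 1.8% of all promoters, CCAAT in 19 and 34.6%, TATAAA in 5 and 11.5%, and CCGGAAG, an ETS motif, in 5 and 10.3%. The windows of CLK1, CLK4 and TRA2B held none of the capitalised motifs, which says nothing of sites further away.

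The TRA2 proteins, relatives of the fly sex-determination factor Transformer-2 that bind GAA-rich exon enhancers, both rose with heat in SAS spheroids. In SAS spheroids TRA2A stood at 59.0, 71.8 and 59.9 CPM in Control, 77.5, 80.1 and 64.6 in RT, 125, 132 and 130.3 in HT and 117, 128 and 125 in HT+RT libraries. In FaDu spheroids TRA2A stood at 99.5, 90.9 and 108 CPM in Control, 113, 118 and 116 in RT, 102, 108 and 122 in HT and 107, 108 and 108 in HT+RT libraries. In SAS spheroids all heated libraries were above all unheated ones, and in FaDu spheroids HT overlapped the controls. In SAS spheroids TRA2A rose by 1.05 after HT (SE 0.08, adjusted p = 1.99e-06), by 1.01 after HT+RT, and by 0.78 against RT (adjusted p = 3.78e-05; edgeR quasi-likelihood test, Benjamini-Hochberg). In FaDu spheroids its log2 fold changes were 0.18, 0.13 and -0.09 in the same comparisons. The first was a call with the block and with the FaDu replicates 1 left out (0.24 in the latter). The last was a call with total-count scaling, and all HT+RT libraries lay below all RT libraries there.

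In SAS spheroids TRA2B stood at 249, 256 and 228 CPM in Control, 266, 274 and 249 in RT, 428, 434 and 434 in HT and 467, 458 and 483 in HT+RT libraries. In FaDu spheroids TRA2B stood at 235, 207 and 232 CPM in Control, 234, 214 and 223 in RT, 212, 216 and 287 in HT and 224, 299.7 and 282 in HT+RT libraries. Heated SAS libraries all lay above unheated ones, and in FaDu spheroids HT replicate 3 and HT+RT replicates 2 and 3 stood above the other heated libraries, as they did for CLK1, HSPH1 and BAG3. TRA2B rose in SAS spheroids by 0.86 after HT (SE 0.06, adjusted p = 6.08e-07), by 0.995 after HT+RT, and by 0.87 against RT (adjusted p = 5.26e-07; edgeR quasi-likelihood test, Benjamini-Hochberg). In FaDu spheroids the log2 fold changes of TRA2B were 0.11 after HT, 0.28 after HT+RT and 0.28 against RT, with no call. All of these were calls with FaDu replicate 1 left out (0.24, 0.42 and 0.42), and the later pair also without a filter; the first turned to -0.0482 without HT replicate 3, and the second was a call without HT+RT replicate 1 (0.39).

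Among the SR proteins, heat went with higher counts of some members and lower counts of others. SRSF1, the founding member of the family and a broadly acting activator of exon use, fell in both spheroid types after HT. In FaDu spheroids SRSF1 stood at 351, 293 and 334 CPM in Control, 304, 277 and 300.2 in RT, 244, 212 and 216 in HT and 227, 218 and 208 in HT+RT libraries. In SAS spheroids SRSF1 stood at 316, 314 and 273 CPM in Control, 294, 291 and 264 in RT, 258, 263 and 249.5 in HT and 243, 264 and 250.5 in HT+RT libraries. Heated libraries were below unheated libraries of the same pair of groups in each type. SRSF1 fell after HT, at -0.52 in FaDu (SE 0.08, adjusted p = 0.00352) and -0.20 in SAS spheroids (SE 0.06, adjusted p = 0.0431; edgeR quasi-likelihood test, Benjamini-Hochberg), and after HT+RT by -0.56 and -0.20. Against RT, the FaDu value was -0.42, a call, and the SAS value -0.12 (adjusted p = 0.146; edgeR quasi-likelihood test, Benjamini-Hochberg). The SAS call after HT was lost in the fit of all libraries, with at least 10 counts required in every library, and without any 1 library other than SAS control replicate 3 (-0.21 to -0.16); after HT+RT it was lost without SAS control replicate 1 or 2, or SAS HT+RT replicate 1 or 3 (-0.19 to -0.17).

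SRSF2, an SR protein of nuclear speckles, fell with heat in SAS spheroids. In SAS spheroids SRSF2 stood at 219, 215 and 217 CPM in Control, 216, 226 and 234 in RT, 166, 154 and 143 in HT and 173, 176 and 153 in HT+RT libraries. In FaDu spheroids SRSF2 stood at 288, 277 and 284 CPM in Control, 277, 299 and 277 in RT, 369.8, 301 and 306 in HT and 314, 307 and 314 in HT+RT libraries. The heated SAS libraries lay below the unheated ones, whereas FaDu libraries after HT lay above the FaDu controls. SRSF2 fell in SAS spheroids, at -0.46 after HT (SE 0.07, adjusted p = 0.000351), -0.32 after HT+RT and -0.39 against RT (adjusted p = 0.000737; edgeR quasi-likelihood test, Benjamini-Hochberg). The FaDu values were 0.23, 0.16 and 0.15, of which the first pair were calls without FaDu replicate 1 (0.15 and 0.16).

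SRSF8, the retrocopy of SRSF2, also fell with heat in SAS spheroids. In SAS spheroids SRSF8 stood at 52.6, 48.7 and 53.5 CPM in Control, 51.1, 53.4 and 59.3 in RT, 33.4, 41.2 and 39.6 in HT and 37.3, 43.1 and 44.8 in HT+RT libraries. In FaDu spheroids SRSF8 stood at 24.9, 25.6 and 25.2 CPM in Control, 25.7, 29.5 and 29.5 in RT, 22.1, 23.1 and 22.7 in HT and 21.9, 22.3 and 22.6 in HT+RT libraries. Heated libraries lay below unheated ones of the same pair of groups in both types. SRSF8 fell in SAS spheroids, at -0.41 after HT (SE 0.09, adjusted p = 0.00505; edgeR quasi-likelihood test, Benjamini-Hochberg), -0.25 after HT+RT and -0.35 against RT, and in FaDu spheroids by -0.33 against RT (values after HT and HT+RT -0.13 and -0.16, not calls). The SAS call after HT+RT was lost without SAS control replicate 1 or 3, or SAS HT+RT replicate 1 or 2 (-0.27 to -0.19), and the FaDu call without FaDu RT replicate 2 or 3, or FaDu HT+RT replicate 2 or 3 (-0.34 to -0.29).

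SRSF11, an arginine- and serine-rich splicing protein, rose in all 6 comparisons of heated with unheated spheroids of a type. In FaDu spheroids SRSF11 stood at 238, 242 and 271 CPM in Control, 216, 258 and 231 in RT, 285, 296 and 297 in HT and 283, 309 and 290.1 in HT+RT libraries. In SAS spheroids SRSF11 stood at 167, 168 and 163 CPM in Control, 165, 186 and 156 in RT, 229.5, 210.0 and 186 in HT and 215, 202 and 204 in HT+RT libraries. No heated group overlapped the unheated group it was compared with. SRSF11 rose after HT by 0.25 in FaDu (SE 0.07, adjusted p = 0.037) and 0.36 in SAS spheroids (SE 0.08, adjusted p = 0.00451; edgeR quasi-likelihood test, Benjamini-Hochberg), after HT+RT by 0.25 and 0.37, and against RT by 0.34 and 0.33. All FaDu calls were lost with total-count scaling; those after HT also without FaDu control replicate 1 or 2, or FaDu HT replicate 2 or 3 (0.21 to 0.25), after HT+RT without FaDu control replicate 1 or 2, or FaDu HT+RT replicate 2 or 3 (0.21 to 0.27), and against RT without FaDu RT replicate 3, or FaDu HT+RT replicate 2 or 3 (0.29 to 0.35).

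SRSF5, an SR protein with paired RNA recognition domains, was higher after each treatment in SAS spheroids. In SAS spheroids SRSF5 stood at 147, 159 and 162 CPM in Control, 247, 234 and 239 in RT, 226, 224 and 211 in HT and 211, 261 and 214 in HT+RT libraries. In FaDu spheroids SRSF5 stood at 196, 253 and 212 CPM in Control, 322, 415 and 396 in RT, 286, 288 and 234 in HT and 259.9, 281 and 239 in HT+RT libraries. In both types every RT library was above every control library, and in FaDu spheroids the HT+RT libraries were below the RT libraries. In SAS spheroids SRSF5 rose by 0.62 after RT (SE 0.06, adjusted p = 0.00544), 0.53 after HT (SE 0.06, adjusted p = 9.58e-05) and 0.60 after HT+RT (edgeR quasi-likelihood test, Benjamini-Hochberg), with -0.03 against RT. In FaDu spheroids the values were 0.78, 0.31 and 0.26 without a call, and SRSF5 fell, at -0.52 against RT (adjusted p = 0.0101; edgeR quasi-likelihood test, Benjamini-Hochberg). That fall was not called without FaDu HT+RT replicate 3 (-0.46), and the FaDu values after HT and HT+RT were calls without control replicate 2 (0.43 and 0.37).

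SRSF6, a close relative of SRSF5, rose after HT+RT in both types. In FaDu spheroids SRSF6 stood at 284, 305 and 309 CPM in Control, 369, 463 and 450.0 in RT, 396, 328 and 322 in HT and 397, 361 and 358 in HT+RT libraries. In SAS spheroids SRSF6 stood at 223, 252 and 247 CPM in Control, 312, 350.3 and 319 in RT, 255, 268 and 239 in HT and 262, 324 and 265 in HT+RT libraries. The RT and HT+RT libraries were above all controls of their type. SRSF6 rose after HT+RT by 0.33 in FaDu (SE 0.07, adjusted p = 0.00854) and 0.29 in SAS spheroids (SE 0.08, adjusted p = 0.0252; edgeR quasi-likelihood test, Benjamini-Hochberg); after HT alone the values were 0.24 and 0.11, and against RT -0.19 and -0.17, with no call. Without FaDu replicate 1 the FaDu values were 0.12 after HT and -0.33 against RT, the latter a call, and the SAS value against RT was a call with total-count scaling, with the block and without a filter. The SAS call was lost with total-count scaling and without SAS control replicate 1, or SAS HT+RT replicate 2 (0.19 to 0.22).

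SRSF3 and SRSF7, which also take part in mRNA export, SRSF4, SRSF9 and SRSF10, a repressor of splicing when it loses phosphate, were not called in any treatment comparison. In FaDu spheroids their log2 fold changes ran from -0.14 to 0.16 after HT and -0.12 to 0.17 after HT+RT, and in SAS spheroids from -0.13 to 0.09 and -0.16 to 0.17. With FaDu replicate 1 left out, SRSF7 was called after HT+RT (0.18) and SRSF4 against RT (-0.17). The block called SRSF7 and SRSF10 after HT and SRSF7 after HT+RT in FaDu spheroids. It also called SRSF4 and SRSF7 after HT+RT in SAS spheroids, and SRSF4 against RT in both types. Total-count scaling called SRSF10 in each FaDu heat comparison and SRSF4 against RT in both types. In SAS spheroids it also called SRSF4 after HT+RT and SRSF3 against RT. SRSF12, an SR-related protein with few counts, stood at 0.735, 1.43 and 0.923 CPM in FaDu controls, 0.924, 0.959 and 1.14 in RT, 1.05, 1.25 and 1.95 in HT and 0.628, 1.25 and 1.08 in HT+RT libraries, with overlapping groups. Its values were 0.50 after HT (adjusted p = 0.405; edgeR quasi-likelihood test, Benjamini-Hochberg) and -0.03 after HT+RT, which became 0.27 without control replicate 2 and 0.18 without HT+RT replicate 1.

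**Figure D3:**
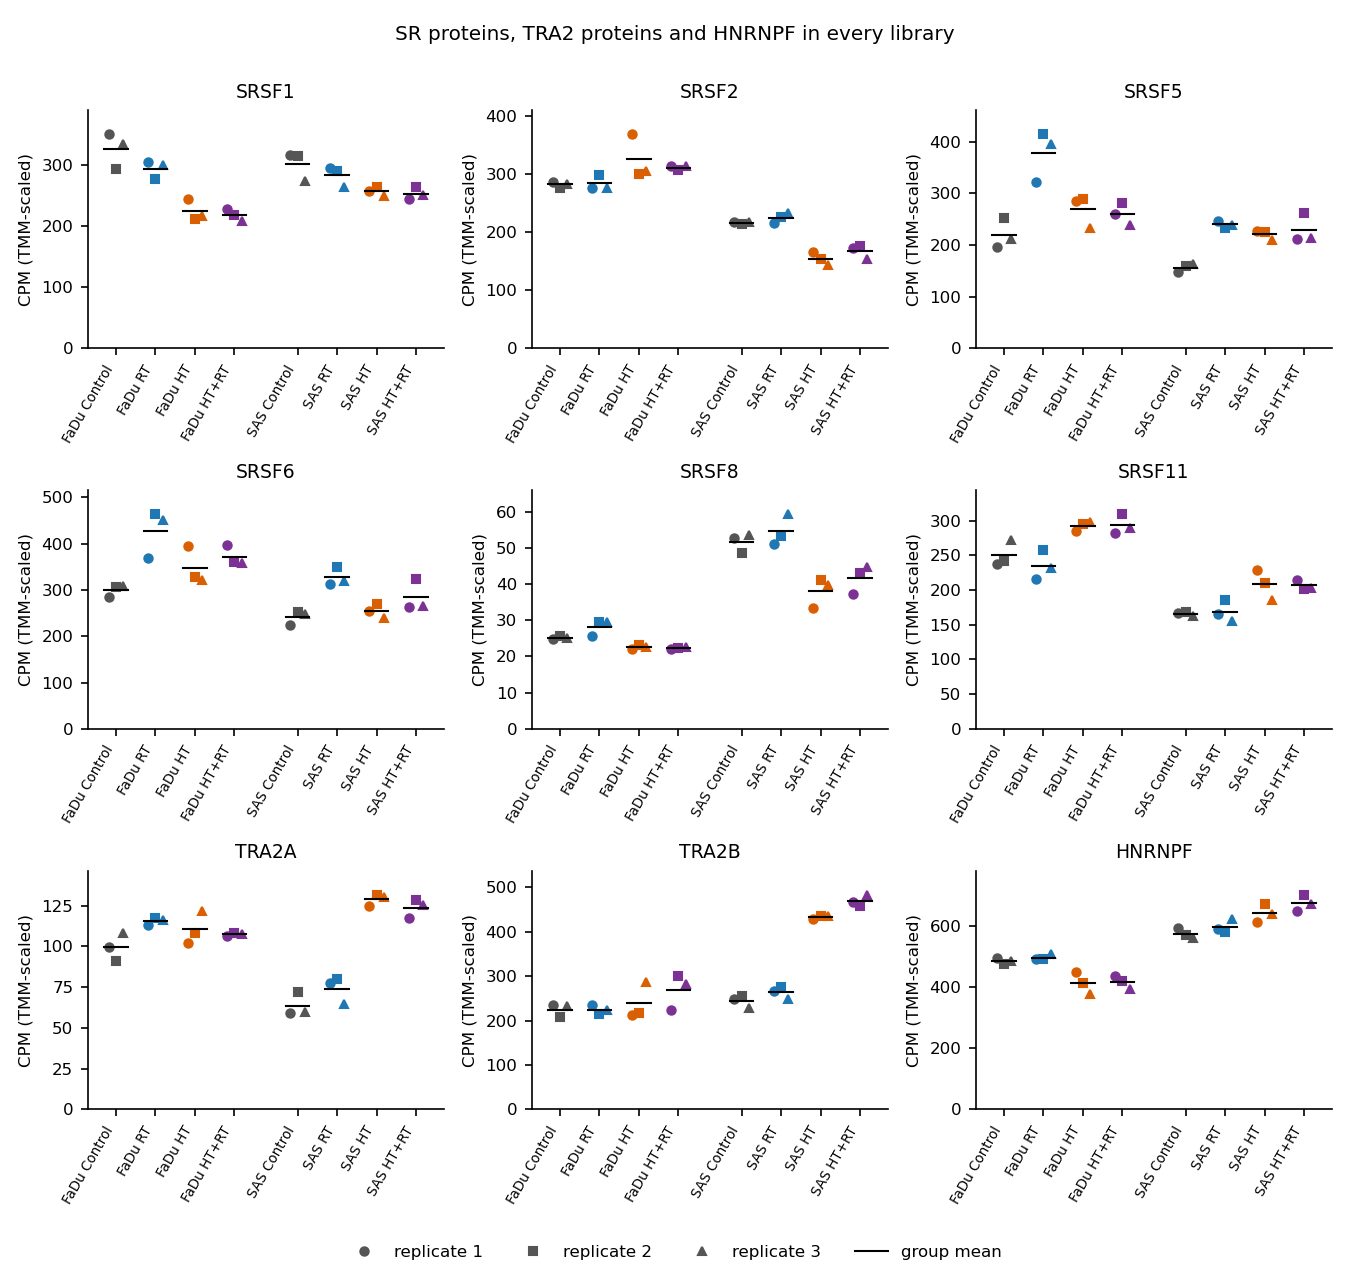
CPM of SRSF1, SRSF2, SRSF5, SRSF6, SRSF8, SRSF11, TRA2A, TRA2B and HNRNPF in each of the 24 libraries, by group, with a bar at the mean of 3 and a marker shape for each replicate number. SRSF5 and SRSF6 are higher in RT libraries than in controls of both types, and TRA2A and TRA2B are higher in heated than in unheated SAS spheroids.

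No hnRNP, and no SR protein, was altered by a treatment. HNRNPDL, an RNA-binding protein related to HNRNPD that limits its own transcript through decay, rose after HT and after HT+RT in both types. In FaDu spheroids HNRNPDL stood at 274, 276 and 272 CPM in Control, 308, 311 and 309 in RT, 364, 332 and 312 in HT and 359.6, 337 and 326 in HT+RT libraries. In SAS spheroids HNRNPDL stood at 287, 256 and 294 CPM in Control, 315, 318 and 344 in RT, 331, 328 and 334 in HT and 332, 331 and 330.1 in HT+RT libraries. All heated libraries, and all RT libraries, were above all controls of their type. HNRNPDL rose after HT by 0.32 in FaDu (SE 0.07, adjusted p = 0.0119) and 0.28 in SAS spheroids (SE 0.06, adjusted p = 0.00534; edgeR quasi-likelihood test, Benjamini-Hochberg), and after HT+RT by 0.34 and 0.30. Against RT it was not called, with 0.15 and 0.06, and the FaDu call after HT was lost without FaDu control replicate 3 (0.31).

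HNRNPH2 and HNRNPF belong to the group of hnRNPs that bind runs of G. In FaDu spheroids HNRNPH2 stood at 93.1, 93.2 and 96.6 CPM in Control, 90.0, 105 and 97.8 in RT, 76.8, 78.1 and 76.0 in HT and 76.6, 79.5 and 73.1 in HT+RT libraries. In SAS spheroids HNRNPH2 stood at 104, 103 and 102 CPM in Control, 107, 96.8 and 105 in RT, 98.1, 87.5 and 88.0 in HT and 93.1, 94.7 and 92.2 in HT+RT libraries. In both types the HT libraries were below the controls. HNRNPH2 fell in FaDu spheroids, at -0.27 after HT (SE 0.06, adjusted p = 0.0111; edgeR quasi-likelihood test, Benjamini-Hochberg), -0.29 after HT+RT and -0.34 against RT, and its SAS values were -0.14, -0.09 and -0.10, not calls, though called with total-count scaling. The FaDu calls of HNRNPH2 were lost after HT without FaDu control replicate 3 (-0.26), after HT+RT without FaDu HT+RT replicate 3 (-0.25), and against RT without FaDu RT replicate 3, or FaDu HT+RT replicate 3 (-0.35 to -0.30).

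In SAS spheroids HNRNPF stood at 592, 569.6 and 559.9 CPM in Control, 588, 580.1 and 621 in RT, 611, 672 and 638 in HT and 648, 701 and 670.0 in HT+RT libraries. In FaDu spheroids HNRNPF stood at 495, 476 and 486 CPM in Control, 491, 489.7 and 506 in RT, 449, 413 and 377 in HT and 436, 418 and 392 in HT+RT libraries. Heated libraries were higher than unheated ones in SAS spheroids and lower in FaDu spheroids, with no overlap within either pair of groups. HNRNPF rose in SAS spheroids by 0.19 after HT (adjusted p = 0.0209), 0.28 after HT+RT and 0.21 against RT (adjusted p = 0.00657; edgeR quasi-likelihood test, Benjamini-Hochberg), while it fell in FaDu spheroids, at -0.24 against RT (adjusted p = 0.0259; values after HT and HT+RT -0.21 and -0.21, not calls). The SAS call after HT was lost with total-count scaling and without SAS control replicate 2 or 3, or SAS HT replicate 2 (0.16 to 0.19); the FaDu call was lost without FaDu RT replicate 2 or 3, or FaDu HT+RT replicate 2 or 3 (-0.25 to -0.20). Both other FaDu values were calls with total-count scaling, with the block, in the fit of all libraries, without a filter and without FaDu replicate 1 (-0.25 and -0.23), and the second by DESeq2.

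HNRNPL, which binds CA repeats, rose in FaDu spheroids after HT. In FaDu spheroids HNRNPL stood at 332, 301 and 322 CPM in Control, 319, 313 and 314 in RT, 373, 357 and 359 in HT and 369, 351 and 350.5 in HT+RT libraries. In SAS spheroids HNRNPL stood at 316, 304 and 316 CPM in Control, 315, 312 and 329.5 in RT, 306, 324 and 312 in HT and 294, 316 and 305 in HT+RT libraries. Heated FaDu libraries were above unheated ones, and SAS groups overlapped. HNRNPL rose in FaDu spheroids by 0.21 after HT (SE 0.06, adjusted p = 0.0433) and 0.19 against RT (adjusted p = 0.0376; edgeR quasi-likelihood test, Benjamini-Hochberg), with 0.18 after HT+RT (not a call) and SAS values of 0.04, 0.02 and -0.02, of which the first pair were -0.0378 and -0.0684 with total-count scaling. Both FaDu calls were lost with total-count scaling and without a filter, the first also by DESeq2. The first was lost without any 1 library other than FaDu control replicate 1 (0.18 to 0.23), and the second without any 1 of its 6 libraries (0.17 to 0.21).

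HNRNPA0, which binds AU-rich RNA, and HNRNPAB, a related packaging protein, fell with heat in SAS spheroids. In SAS spheroids HNRNPA0 stood at 279, 285 and 285 CPM in Control, 284, 296 and 313 in RT, 224, 250.5 and 251 in HT and 239.8, 261 and 267 in HT+RT libraries. In SAS spheroids HNRNPAB stood at 528, 493 and 476 CPM in Control, 526, 514 and 527 in RT, 426, 435 and 435 in HT and 430.5, 456 and 436 in HT+RT libraries. For both genes all heated SAS libraries were below the unheated group they were compared with. HNRNPA0 fell, at -0.20 after HT (SE 0.06, adjusted p = 0.0273; edgeR quasi-likelihood test, Benjamini-Hochberg) and -0.18 against RT, and HNRNPAB by -0.18 (SE 0.05, adjusted p = 0.0297) and -0.21; after HT+RT against Control the values were -0.10 and -0.13, not calls. The calls after HT were lost for HNRNPA0 without SAS control replicate 2 or 3, or SAS HT replicate 1 (-0.19 to -0.15), and for HNRNPAB without any 1 library other than SAS control replicate 3 (-0.18 to -0.15); that of HNRNPA0 against RT was lost without SAS RT replicate 2 or 3, or SAS HT+RT replicate 1 or 2 (-0.19 to -0.14). HNRNPAB after HT+RT was a call with the block and without SAS control replicate 3 (-0.16 in the latter), and total-count scaling called both genes there.

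In FaDu spheroids HNRNPA0 stood at 244, 248 and 248 CPM in controls and 256, 283 and 271 after HT, and HNRNPAB at 279.5, 282 and 279 and 268, 256 and 237 CPM. The HT libraries were above the controls for HNRNPA0 and below them for HNRNPAB. Their log2 fold changes were 0.15 and -0.12 after HT, 0.09 and -0.20 after HT+RT, and -0.01 and -0.26 against RT, none of them called. Without FaDu replicate 1, HNRNPA0 was called after HT (0.20), as it was without HT replicate 1 alone (0.20), and HNRNPAB was called after HT (-0.15) and HT+RT (-0.29), and after HT+RT without HT+RT replicate 1 alone (-0.28). Against RT, HNRNPAB was called without FaDu replicate 1 (-0.36), by DESeq2, with total-count scaling, in the fit of all libraries, without a filter and with the block.

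HNRNPA2B1 and HNRNPC, core proteins of the particles that package nascent RNA, rose by small steps in SAS spheroids. HNRNPA2B1 stood at 1817, 1715 and 1715 CPM in SAS controls and 1976, 1850.0 and 2015 CPM after HT, and HNRNPC at 654, 639 and 611 and 689, 714 and 704 CPM, without overlap. HNRNPA2B1 rose by 0.19 after HT (adjusted p = 0.0216; edgeR quasi-likelihood test, Benjamini-Hochberg), 0.22 after HT+RT and 0.23 against RT, and HNRNPC by 0.18 after HT and 0.14 against RT (after HT+RT 0.13, not a call). Both calls after HT were lost with total-count scaling, that of HNRNPA2B1 also without SAS control replicate 2 or 3, or SAS HT replicate 1 (0.17), and that of HNRNPC without SAS control replicate 2 or 3, or SAS HT replicate 2 (0.15 to 0.18). Against RT, the call of HNRNPC was lost by DESeq2, with total-count scaling, without a filter, and without any 1 library other than SAS RT replicate 1 (0.12 to 0.15).

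HNRNPLL, a relative of HNRNPL, rose by 0.24 after HT+RT in SAS spheroids (adjusted p = 0.0288; edgeR quasi-likelihood test, Benjamini-Hochberg) and 0.19 against RT, calls lost by DESeq2, total-count scaling and without a filter (that against RT also in the fit of all libraries), and lost without any 1 library other than SAS control replicate 1 (0.19 to 0.26) and without any 1 of its 6 libraries (0.16 to 0.21) in the respective comparisons. In FaDu spheroids HNRNPLL stood at 44.9, 41.6 and 46.1 CPM in Control, 40.6, 38.4 and 39.1 in HT and 34.6, 40.6 and 40.3 in HT+RT libraries. Those heated libraries lay below the controls, without a call. Total-count scaling called HNRNPLL there after HT, and the fit of all libraries called it after HT+RT. HNRNPA1L2, an intronless copy, stood at 5.93, 4.45 and 4.89 CPM in SAS controls and 6.87, 6.88 and 7.64 CPM after HT. It rose by 0.52 there (adjusted p = 0.0354; edgeR quasi-likelihood test, Benjamini-Hochberg), a call lost by DESeq2, with total-count scaling, and without any 1 library other than SAS control replicate 1 (0.43 to 0.55).

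The other 13 tested hnRNPs were not called in any treatment comparison: HNRNPA1, HNRNPA1P48, HNRNPA3, HNRNPD, HNRNPH1, HNRNPH3, HNRNPK, HNRNPM, HNRNPR, HNRNPU, HNRNPUL1, HNRNPUL2 and HNRNPUL2-BSCL2. Leaving aside the last pair, their log2 fold changes ran from -0.11 to 0.27 after HT and -0.13 to 0.12 after HT+RT in FaDu spheroids, and from -0.08 to 0.18 and -0.09 to 0.14 in SAS spheroids. With FaDu replicate 1 left out, HNRNPA1 was called after HT (0.22), and HNRNPH3 (-0.15), HNRNPUL2 (-0.39) and HNRNPUL2-BSCL2 (-0.69) against RT. In FaDu spheroids the block called HNRNPA1 and HNRNPA3 after HT and HNRNPUL2 after HT+RT. It called HNRNPUL2 and HNRNPUL2-BSCL2 there for HT+RT against RT and against HT. In SAS spheroids the block called HNRNPUL2 in each heat comparison, HNRNPA3 and HNRNPH1 after HT+RT, and HNRNPA3, HNRNPR, HNRNPU and HNRNPUL1 against RT. With total-count scaling, calls were gained by HNRNPK, HNRNPU and HNRNPUL2 against RT in FaDu, and in SAS spheroids by HNRNPR, HNRNPU and HNRNPUL2 after HT, HNRNPR, HNRNPUL1 and HNRNPUL2 after HT+RT and HNRNPR, HNRNPU and HNRNPUL1 against RT. HNRNPUL2, a relative of the scaffold protein HNRNPU, stood at 39.3, 38.5 and 43.8 CPM in FaDu controls, 39.5, 44.9 and 40.4 in HT and 36.9, 37.8 and 29.1 in HT+RT libraries, and its readthrough HNRNPUL2-BSCL2 at 2.83, 2.14 and 2.73, 4.50, 2.87 and 3.11 and 2.51, 1.50 and 1.80 CPM. In SAS spheroids HNRNPUL2 stood at 118, 106 and 118, 97.0, 92.2 and 104 and 101, 73.4 and 104 CPM in the same groups, and HNRNPUL2-BSCL2 at 7.12, 5.87 and 7.66, 8.62, 7.04 and 6.24 and 8.26, 7.19 and 8.08 CPM. For both genes all these SAS libraries were above all FaDu libraries. The HT+RT libraries of both types and the SAS HT libraries lay below the controls for HNRNPUL2, and the FaDu HT libraries above them for HNRNPUL2-BSCL2, while the other treated groups overlapped the controls. The log2 fold changes of HNRNPUL2 were 0.06 and -0.21 in FaDu and -0.19 and -0.25 in SAS spheroids, after HT and HT+RT. With FaDu replicate 1 left out it was called after HT+RT (-0.31), and without SAS control replicate 2 after HT (-0.24); the first FaDu value was -0.0201 with total-count scaling. Those of HNRNPUL2-BSCL2 were 0.46, -0.39, 0.12 and 0.24 in the same order, the third being -0.0267 without HT replicate 1.

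Summed over the members of a family, the CLK genes stood at 147 ± 12.4 CPM (SD, n = 3) in SAS controls and 442 ± 26.1 after HT, and at 126 ± 8.39 and 143 ± 31.5 in FaDu spheroids. The summed TRA2 level was 308 ± 19.9 CPM in SAS controls and 561 ± 7.37 after HT, and 324 ± 22.9 and 349 ± 51.8 in FaDu spheroids. Summed SR proteins stood at 2163 ± 61.4 and 2114 ± 106 CPM in SAS and 2537 ± 28.7 and 2646 ± 187 in FaDu spheroids, differences within the spread of replicates, while after RT the sum was 2358 ± 53.8 and 2830.0 ± 110.1 CPM, every RT library being above every control of its type; hnRNPs stood at 11540.0 ± 225 and 11830.0 ± 197 CPM, and 10310.0 ± 502 and 10580.0 ± 442. The summed CLK level after RT was 103 ± 2.59 CPM in FaDu and 130.2 ± 7.08 in SAS spheroids. Within SAS spheroids the sums of the CLK and TRA2 genes thus differed between heated and control libraries by more than the spread between replicates, the former mostly through CLK1 (means 40.7 and 290.5 CPM; CLK2 and CLK3 were not called), while rises and falls were mixed within the SR family.

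Radiation alone moved few of these genes at the depth and replicate number of the study. In FaDu spheroids 0 of 41 members were called by edgeR (0.0322% of all genes were), with 7 at an unadjusted p under 0.05. DESeq2 called 3 of them (SRSF5, SRSF6 and CLK1), and the fit of all 24 libraries called 2, that without a filter 4, that with the block 6 (those 3, TRA2A, CLK4 and HNRNPDL) and that without replicate 1 called 4 (SRSF5, SRSF6, CLK1 and CLK4). Of all genes these fits called 0.406%, 0.121%, 0.455%, 2.01% and 1.21%, in that order. The count was 1 without control replicate 2 and 2 without RT replicate 1. In SAS spheroids 1 of 40 was called, SRSF5, against 0.0749% of all genes, with 4 at an unadjusted p under 0.05. DESeq2 and the fit without a filter called 3 (SRSF5, SRSF6 and CLK1; 0.296% and 0.598% of all genes), the block 4 (HNRNPDL as well; 1.96% of all genes), and without SAS RT replicate 2 the count was 0, SRSF5 then standing at 0.63.

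The RT libraries of SRSF5, SRSF6, CLK1 and HNRNPDL did not overlap the controls in either type, as the CPM given with each gene show. SRSF5 had a log2 fold change of 0.78 in FaDu (SE 0.12, adjusted p = 0.143) and 0.62 in SAS spheroids (edgeR quasi-likelihood test, Benjamini-Hochberg), and SRSF6 had 0.52 (adjusted p = 0.205) and 0.44 (adjusted p = 0.0598). CLK1 was lower after RT, at -0.84 in FaDu (SE 0.12, adjusted p = 0.135) and -0.59 in SAS spheroids (SE 0.10, adjusted p = 0.0788; edgeR quasi-likelihood test, Benjamini-Hochberg). With the replicate block, edgeR's Benjamini-Hochberg adjusted p for CLK1 was 1.03e-07 in FaDu and 2e-05 in SAS spheroids, and the quasi-likelihood value without FaDu replicate 1 was 1.03e-05; over all alternatives the adjusted p for FaDu spheroids ran from 1.83e-10 to 0.8 and for SAS spheroids from 1.82e-06 to 0.519. CLK4 had -0.58 in FaDu and 0.01 in SAS spheroids, neither called; whether RT acted differently in the types was not tested.

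Radiation added to heat, HT+RT against HT, gave 0 calls of 41 in FaDu and 0 of 40 in SAS spheroids by edgeR, and 0% of all genes were called in either. At an unadjusted p under 0.05 there were 2 members in FaDu and 1 in SAS spheroids, DESeq2 called 0 in both, and with the block HNRNPUL2 and HNRNPUL2-BSCL2 were called in FaDu spheroids (0.954% of all genes) and none in SAS spheroids (0.906%). SRSF5 stood at -0.06 and 0.07 in this comparison, SRSF6 at 0.08 and 0.17, and CLK1 at 0.26 and 0.14, in FaDu and SAS spheroids. SRSF5, a call after RT alone in SAS spheroids, was thus not called when RT followed heat, and neither were SRSF6 and CLK1, which does not show that the values were equal.

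Whether heat acted differently in the types was tested as an interaction, the log2 fold change in FaDu minus that in SAS spheroids. For HT against Control, 2 members were higher and 6 lower in this difference of 41 tested (4.88% and 14.6%), against 2.3% and 3.25% of all genes, and 2 differed by more than 1 (2.74% of all genes). The differences were largest for CLK1 (-1.72), SE 0.30, adjusted p = 0.00261, and CLK4 (-1.65), SE 0.18, adjusted p = 5.29e-05 (edgeR quasi-likelihood test, Benjamini-Hochberg). The difference was also negative for TRA2A (-0.84), TRA2B (-0.71), CLK2 (-0.81) and HNRNPF (-0.37), and positive for SRSF2 (0.72) and HNRNPA0 (0.38). The adjusted p was 0.00113 for TRA2A, 0.00717 for TRA2B, 0.00091 for SRSF2 and 0.0493 for CLK2 by edgeR's quasi-likelihood test with Benjamini-Hochberg adjustment. The count was 8 without FaDu replicate 1 (6.57% of all genes, in place of 5.55%), with the same 8 members, and 5 without FaDu control replicate 3. Calls were lost for CLK2 without any 1 library other than FaDu HT replicate 1 (-0.90 to -0.67), for HNRNPF without FaDu control replicate 1, 2 or 3, or SAS control replicate 2 (-0.38 to -0.36), and for HNRNPA0 without a filter and without FaDu control replicate 3, or FaDu HT replicate 2 or 3, or SAS control replicate 1 or 3, or SAS HT replicate 1 (0.28 to 0.38).

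For HT+RT against RT, which shares no library with that test, 2 members were higher and 8 lower (4.88% and 19.5%), against 2.44% and 5.15% of all genes, and CLK1 and CLK4 again differed by more than 1 (3.36% of all genes did). The differences were CLK1 (-1.39), SE 0.20, adjusted p = 0.00062, and CLK4 (-1.10), SE 0.19, adjusted p = 0.00175 (edgeR quasi-likelihood test, Benjamini-Hochberg). The difference was negative for TRA2A (-0.89), CLK2 (-0.67), TRA2B (-0.62), SRSF5 (-0.52), HNRNPF (-0.48) and SRSF1 (-0.31), and positive for CLK3 (0.72) and SRSF2 (0.52). The adjusted p was 0.00759 for CLK3, 0.000115 for TRA2A, 0.00656 for TRA2B and 0.00144 for HNRNPF by edgeR's quasi-likelihood test with Benjamini-Hochberg adjustment. The count of 10 was 14 with the block, which added HNRNPA2B1, HNRNPH2, HNRNPL and HNRNPLL, and 11 without FaDu replicate 1, which added HNRNPH2, with all 10 kept; the share of all genes called was 7.59%, 13.6% and 8.77% in these fits. SRSF1 was lost with RLE scaling, in the fit of all libraries, without a filter, with at least 10 counts in every library, and without any 1 library other than FaDu HT+RT replicate 1 (-0.35 to -0.24). SRSF5 was lost with total-count scaling, with at least 10 counts in every library, and without FaDu RT replicate 2 or 3, or FaDu HT+RT replicate 3, or SAS RT replicate 1, 2 or 3, or SAS HT+RT replicate 2 (-0.55 to -0.39).

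**Figure D4:**
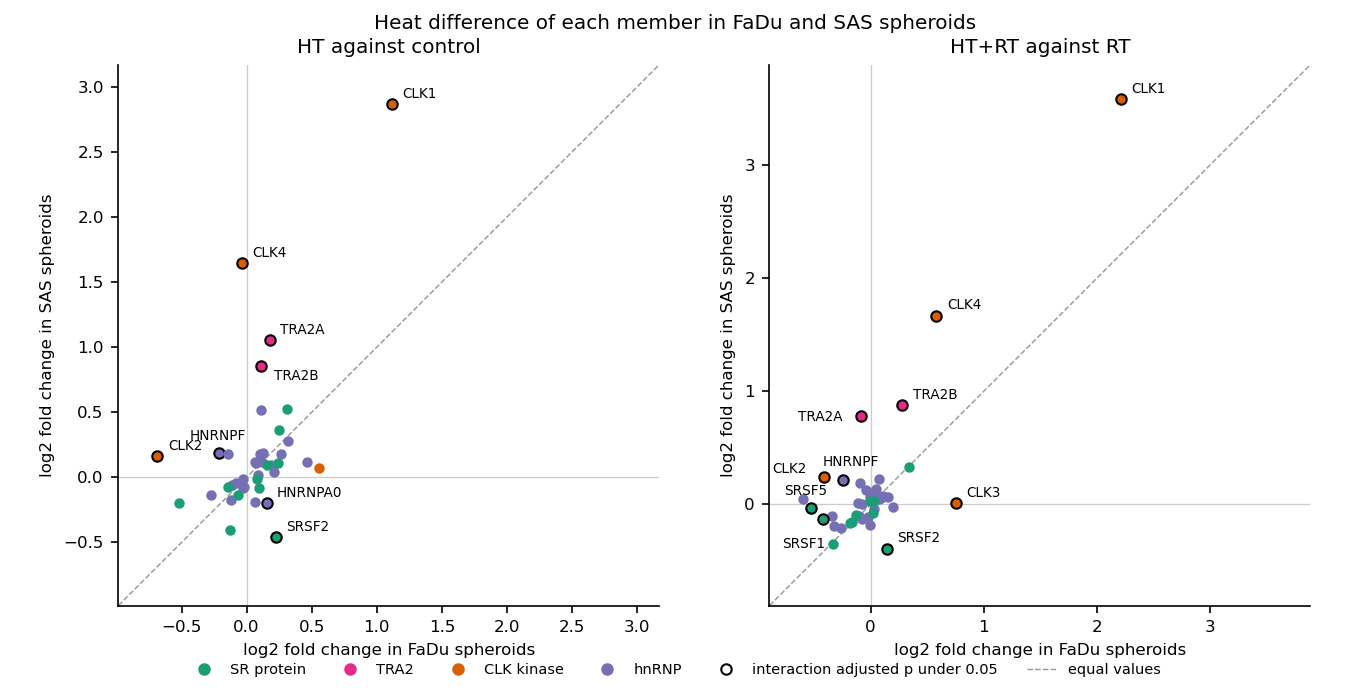
Log2 fold change of each member in FaDu (horizontal) and SAS spheroids (vertical) for HT against Control and for HT+RT against RT, with colours for family, a black edge where the interaction had an adjusted p under 0.05 (edgeR quasi-likelihood test, Benjamini-Hochberg) and a dashed line of equal values. CLK1, CLK4, TRA2A and TRA2B lie above the line in both panels.

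Untreated FaDu and untreated SAS spheroids were compared to see how the types differ before treatment. Of 41 members tested, 12 were higher and 16 lower in FaDu spheroids (29.3% and 39.0%), against 38.6% and 36.4% of all genes, and 4 were altered (9.76%, against 38.1%). The altered members were SRSF12, SRSF8 (-1.002), HNRNPUL2 (-1.46) and HNRNPUL2-BSCL2 (-1.39). SRSF12 had 64 counts in the FaDu and 3 in the SAS controls, so it passed the filter only through the type in which it is higher and had to differ; without it, 11 of 40 members were higher (27.5%), 16 lower and 3 altered (7.5%). The adjusted p was 2.44e-08 for HNRNPUL2 and 4.15e-07 for SRSF8 (edgeR's quasi-likelihood test, Benjamini-Hochberg).

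Beside SRSF12, the members highest in FaDu relative to SAS controls were HNRNPUL1 (0.95), TRA2A (0.68), SRSF11 (0.62) and CLK2 (0.53), and the lowest were HNRNPUL2 (-1.46), HNRNPUL2-BSCL2 (-1.39), SRSF8 (-1.002), HNRNPAB (-0.80) and HNRNPA1 (-0.77). HNRNPUL1, a relative of HNRNPU, had SE 0.06 and adjusted p = 1.94e-07, and HNRNPAB had SE 0.06 and adjusted p = 5.28e-07 (edgeR quasi-likelihood test, Benjamini-Hochberg). The kinases were split, with CLK2 higher (0.53) and CLK1 (-0.65), CLK3 (-0.65) and CLK4 (-0.59) lower in FaDu controls. Total-count scaling shifts the median of all genes by 0.17 in this comparison, and with it 34 members were called, 23 higher and 11 lower (75.3% of all genes, in place of 75%), of which 23 were among the 28, with HNRNPA0, HNRNPD, HNRNPF, HNRNPH1 and HNRNPH3 lost and 1 of the 28 changing sign. With at least 10 counts in every library 2 were altered, and SRSF12, HNRNPD and HNRNPH1 were not called.

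Calls in the controls were lost for HNRNPD without FaDu control replicate 2 or 3, or SAS control replicate 1 or 2 (-0.21 to -0.14), for HNRNPH1 without FaDu control replicate 2 or 3, or SAS control replicate 2 or 3 (-0.19 to -0.10), and for HNRNPH3 without FaDu control replicate 2 or 3, or SAS control replicate 1 or 2 (-0.24 to -0.16). Those of HNRNPA0 and HNRNPM were lost without FaDu control replicate 3 (-0.15) and without SAS control replicate 2 or 3 (0.16 to 0.19), respectively. The call of HNRNPH1 was also lost by DESeq2, and that of HNRNPA0 without a filter.

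Levels of different members were compared per length, as CPM per kilobase of the principal transcript (mean ± SD, n = 3). In FaDu controls the highest were HNRNPA2B1 at 509 ± 33.2, HNRNPC at 382 ± 18.1, HNRNPK at 288 ± 17.3, HNRNPA1 at 269 ± 20.6 and HNRNPA3 at 236 ± 8.20 CPM per kilobase. HNRNPK and HNRNPA1 did not differ beyond their spread. In SAS controls the order was HNRNPA2B1 at 500.2 ± 16.9, HNRNPA1 at 469.9 ± 7.45, HNRNPC at 370.4 ± 12.9, HNRNPK at 364 ± 8.80 and HNRNPA3 at 311 ± 14.1 CPM per kilobase, with HNRNPC and HNRNPK within their spread. The lowest in both were HNRNPCL1 to HNRNPCL4 and SRSF12, at 0.286 in FaDu and 0.0158 in SAS controls. Per kilobase of all exon bases merged, HNRNPA1 came first, at 218 and 380.2. Among the kinases, CLK2 led in FaDu controls at 30.8 ± 0.478, followed by CLK3 at 15.2 ± 1.91, CLK1 at 13.5 ± 2.31 and CLK4 at 4.89 ± 0.714 CPM per kilobase, the middle pair within their spread. In SAS controls CLK3 stood at 24.4 ± 1.51, CLK2 at 21.8 ± 2.20, CLK1 at 21.6 ± 1.99 and CLK4 at 7.54 ± 1.04 CPM per kilobase, with CLK3, CLK2 and CLK1 within their spread. The order depends on the length used: per kilobase of merged exons CLK3, at 1.38 in FaDu and 2.20 in SAS controls, lay with CLK4, within their spread, below CLK1 and CLK2.

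**Figure D5:**
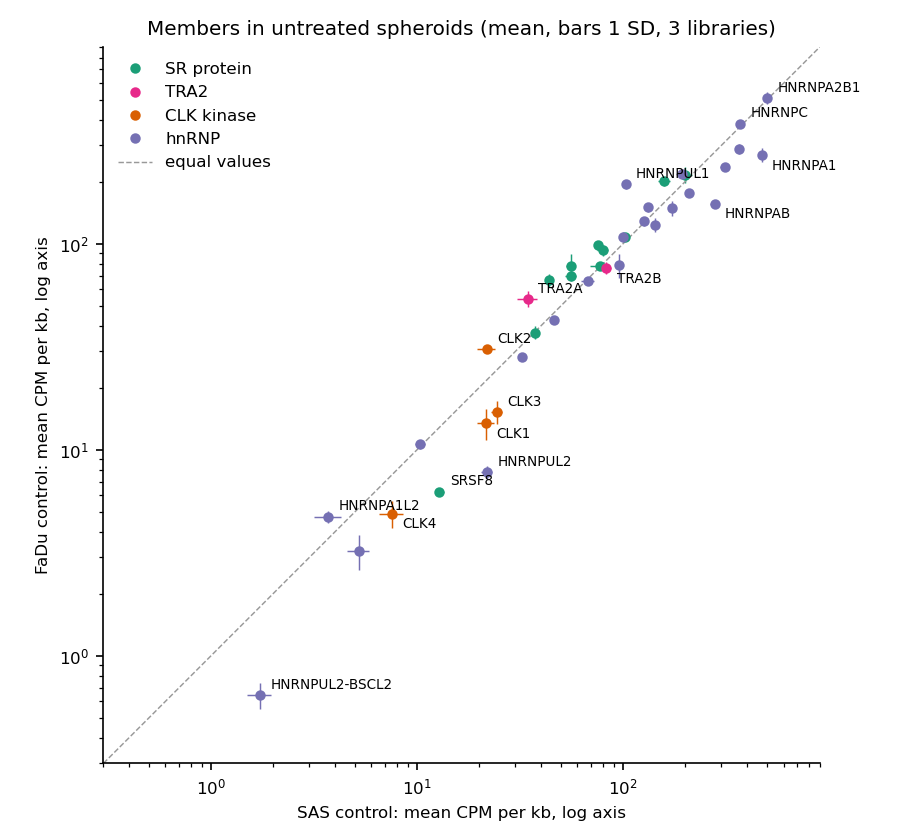
Mean CPM per kilobase of the principal transcript in SAS (horizontal) and FaDu controls (vertical) on log axes, with bars of 1 SD (n = 3) and colours for family, for 40 members. HNRNPA2B1 is at the upper end in both types, and HNRNPUL2 and HNRNPUL2-BSCL2 lie below the dashed line of equal values.

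Lists of other genes of the splicing machinery place the members among their partners. Shares of the genes tested that rose and fell follow each list's counts, and over all genes they were 7.95% and 9.69% after HT in FaDu and 12.2% and 11.4% in SAS spheroids. Of 32 SR-related proteins, which carry arginine- and serine-rich stretches, 8 rose and 4 fell after HT in FaDu spheroids (25% and 12.5%), with CCNL1 (1.45), RSRP1 (1.10) and PNN (0.65) highest and THRAP3 (-0.46), CDK12 (-0.40) and SCAF8 (-0.34) lowest. In SAS spheroids 8 rose and 2 fell (25% and 6.25%), with RSRP1 (0.94), ARGLU1 (0.91) and RSRC2 (0.85) highest and SON (-0.33) and BCLAF1 (-0.25) lowest. CCNL1, a cyclin found in speckles, differed between the types in the interaction for HT (1.22), as did PNN (0.61) and ARGLU1 (-0.54). Against RT, 9 of the SR-related genes rose and 5 fell after HT+RT in FaDu spheroids (28.1% and 15.6%) and 7 and 6 in SAS spheroids (21.9% and 18.8%), against 9.37% and 9.9% and 14.1% and 13.8% of all genes, the former led by RSRP1 (1.49), CCNL1 (1.33) and RSRC2 (0.68) and the latter by RSRP1 (1.59), RSRC2 (0.99) and ARGLU1 (0.71).

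A list of 11 other kinases held SRPK, DYRK and HIPK genes and PRPF4B. Of these, 0 rose and 1 fell (0% and 9.09%) after HT in FaDu spheroids (SRPK2, -0.24). There, 4 had an unadjusted p under 0.05 by edgeR, and by DESeq2 0 rose and 1 fell. In SAS spheroids 2 of 10 tested rose and 0 fell (20% and 0%) (DYRK1B (1.29) and DYRK1A (0.37); 3 at an unadjusted p under 0.05, and 3 up and 0 down by DESeq2). Both also differed between the types (-1.50 and -0.53 in the interaction for HT), so CLK1 and CLK4 were not the only kinases with a larger heat difference in SAS spheroids.

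Of 44 other regulators of splice choice, 6 rose and 6 fell after HT in FaDu spheroids (14.3% and 14.3%; by DESeq2 5 and 7), led by RBM4 (0.69), PCBP1 (0.26) and RBM6 (0.25) and RBM5 (-0.49), MBNL2 (-0.45) and MBNL1 (-0.35). In SAS spheroids 7 rose and 5 fell (17.1% and 12.2%; by DESeq2 3 and 5), led by RBM25 (0.74), PTBP2 (0.66) and MATR3 (0.59) and RBM5 (-0.52), ESRP2 (-0.44) and PTBP3 (-0.40); the symbol MATR3 is carried by a pair of overlapping gene entries, of which 1 was used. The 44 core spliceosome genes gave 3 up and 2 down (6.82% and 4.55%) in FaDu spheroids (BUD31 (0.33), SNRPA (0.31) and SF3B6 (0.26); PRPF4 (-0.38) and SF3B3 (-0.20)) and 3 up and 3 down (6.98% and 6.98%) in SAS spheroids (SNRPA (0.71), BUD31 (0.27) and SF3B1 (0.25); CDC5L (-0.30), DHX8 (-0.26) and EFTUD2 (-0.17)). Of 15 factors of nonsense-mediated decay, 0 rose and 2 fell (0% and 13.3%) in FaDu spheroids (SMG9 (-0.53) and UPF1 (-0.34); 7 at an unadjusted p under 0.05 by edgeR, and by DESeq2 0 up and 2 down), and 1 rose and 2 fell (6.67% and 13.3%) in SAS spheroids (SMG8 (0.53), UPF1 (-0.30) and UPF2 (-0.25)). A list of 7 proteins of nuclear stress bodies, which hold SR proteins in heated human cells, enters only the totals.

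Over these 6 lists together, 153 genes in all, 17 rose and 15 fell after HT of 151 tested in FaDu spheroids (11.3% and 9.93%), and 21 and 12 of 148 in SAS spheroids (14.2% and 8.11%), shares near those of all genes. After RT, edgeR called 0 of them in FaDu (10 at an unadjusted p under 0.05, and 0 by DESeq2) and 0 in SAS spheroids (12 at an unadjusted p under 0.05, and 1 up and 1 down by DESeq2). HT+RT against HT gave 0 by edgeR and 0 by DESeq2 in both, with 6 and 6 at an unadjusted p under 0.05. The median log2 fold change after HT was 0.09 over the members tested in FaDu spheroids and 0.09 in SAS spheroids, against 0.01 and 0.00 over all genes tested. For the 4 CLK genes the median was 0.26 and 0.90, for the SR proteins 0.12 and -0.08, and for the hnRNPs 0.07 and 0.10.

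In the same 6 lists the genes higher and lower were 17 and 15 (11.3% and 10%) after HT+RT and 20 and 13 (13.2% and 8.61%) for HT+RT against RT in FaDu spheroids, and 26 and 15 (17.7% and 10.2%) and 24 and 23 (16.3% and 15.6%) in SAS spheroids. Over all genes the shares were 9.52% and 9.78%, and 9.37% and 9.9%, in FaDu spheroids. In SAS spheroids they were 13.6% and 11.5%, and 14.1% and 13.8%. Between the controls 48 and 59 (32% and 39.3%) were higher and lower in FaDu spheroids, and the interactions gave 3 and 6 (1.97% and 3.95%) for HT and 4 and 10 (2.65% and 6.62%) for HT+RT against RT. Over all genes these shares were 38.6% and 36.4%, 2.3% and 3.25%, and 2.44% and 5.15%, in that order. DESeq2 gave 3 and 7 genes in the interaction for HT and 8 and 9 in that for HT+RT against RT.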

How the data were processed

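Total RNA of 24 spheroid libraries was sequenced from directional libraries, and reads were demultiplexed with bcl2fastq. The deposited tables hold raw counts of reads per Ensembl gene made by the authors, whose aligner, counting program and strand setting are not stated; their notes name the mouse build mm9, while the gene identifiers are human. The authors also deposited counts divided by DESeq2 size factors, which were not used. The 7 raw tables gave 42 columns for the 24 libraries, and the 18 repeated columns were identical. Of 57500 genes, 602 were not in GENCODE 29 and held 0.0217% of counts.

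Each comparison was fitted on the 6 libraries of its groups, or 12 for an interaction, with edgeR 4.0.16 in R 4.3.3: filterByExpr with a minimum count of 10, TMM scaling, the quasi-likelihood F test, and Benjamini-Hochberg adjustment over all genes tested. The scripts were tested on simulated data with known answers. Alternatives were DESeq2 1.42.0, RLE factors, total counts only, no filter, a minimum of 10 counts in each library of the fit, a fit of all 24 libraries, a block for the replicate number, and each library left out; leaving out all FaDu libraries numbered 1 was chosen after seeing the data. Whether same-numbered libraries pair was checked by correlating their deviations from the group means over all genes tested. Every same-number correlation was above 0.1 in 10 of 13 comparisons (for example 0.28 to 0.53 for FaDu HT against control), not for SAS HT against control, the controls, or the interaction for HT against control; the pairing comes from these values, since the labels do not say what a number marks. In FaDu spheroids libraries numbered 2 and 3 correlated across numbers by as much as some same-number pairs (for example 0.35 for HT+RT replicate 2 with HT replicate 3, and 0.31 for replicates 2), while those numbered 1 correlated negatively with both.

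Members and gene lists were chosen with earlier results of these data known. Values by sample are given for members altered in a comparison with control and for the 5 highest and 5 lowest called members after HT and HT+RT; elsewhere called members are named, up to 5 in each direction, and for the other lists up to 3 in each direction; further names were chosen after their values were seen.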

Additional observations from a re-analysis of the deposited data

Results flagged for a closer look

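The heat difference of 8 members for HT against Control differed between the spheroid types in a test of the interaction, given as FaDu minus SAS on the log2 scale: SRSF2 (0.72), TRA2A (-0.84), TRA2B (-0.71), CLK1 (-1.72), CLK2 (-0.81), CLK4 (-1.65), HNRNPA0 (0.38) and HNRNPF (-0.37). For HT+RT against RT, in libraries that the first test does not use, it differed for 10 members: SRSF1 (-0.31), SRSF2 (0.52), SRSF5 (-0.52), TRA2A (-0.89), TRA2B (-0.62), CLK1 (-1.39), CLK2 (-0.67), CLK3 (0.72), CLK4 (-1.1) and HNRNPF (-0.48). These counts were 19.5% and 24.4% of the 41 members tested, against 5.55% and 7.59% of all genes, sets that were not matched for count level. TRA2A, TRA2B, CLK1, CLK2, CLK4, HNRNPF and SRSF2 are named in both, each with the same sign. Why the types differ was not tested, and in HT+RT against RT the radiation dose differed along with the type.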

How the results depend on the processing

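The rule for values by sample names 20 members, and HNRNPF, HNRNPA2B1, HNRNPC, HNRNPA1L2 and HNRNPLL are not among them. Of the log2 fold changes of these 20 members in the HT and HT+RT comparisons with Control, 491 values under other settings kept direction and side of the threshold. A further 32 passed it only under the alternative, 9 passed it as reported but not under the alternative, and 14 changed sign. With 1 library or number left out these counts were 425, 17, 53 and 13. All values that changed sign belong to members not called in that comparison, and the cause was not tested.

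With total counts only, which shifted the median of all genes by -0.08 to -0.09 in the heat comparisons, the sign changed for HNRNPUL2 (-0.0201) after HT and CLK4 (-0.0925) and HNRNPA0 (-0.0035) after HT+RT in FaDu spheroids, and in SAS spheroids for CLK3 (-0.0088) and HNRNPL (-0.0378) after HT and CLK3 (-0.0737) and HNRNPL (-0.0684) after HT+RT. CLK4 in FaDu spheroids after HT+RT, at 0.00, was -0.0118 by DESeq2, -0.011 with no filter, -0.0226 with all libraries in 1 fit and -0.0047 with the replicate block. CLK3 in SAS spheroids after HT+RT was -0.0017 by DESeq2 and -0.0065 with no filter, where HNRNPL was -0.0015.

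With 1 library left out, FaDu values after HT became -0.0482 for TRA2B without HT replicate 3, and 0.087 and 0.016 for CLK4 without control replicate 3 and HT replicate 1. After HT+RT they became 0.27 and 0.18 for SRSF12 without control replicate 2 and HT+RT replicate 1, and -0.0771, -0.0382 and -0.11 for CLK4 without control replicates 1 and 2 and HT+RT replicate 3. In SAS spheroids HNRNPUL2-BSCL2 after HT was -0.0267 without HT replicate 1, and after HT+RT CLK3 was -0.0387, -0.0328 and -0.0189 without control replicate 1 and HT+RT replicates 1 and 2, and HNRNPL -0.0025 without HT+RT replicate 2. Over all left-out libraries these results ran from -0.0482 to 0.24 (TRA2B) and -0.11 to 0.087 (CLK4) after HT and -0.22 to 0.27 (SRSF12) and -0.11 to 0.12 (CLK4) after HT+RT in FaDu spheroids, and in SAS spheroids from -0.0267 to 0.23 (HNRNPUL2-BSCL2) after HT and -0.0387 to 0.0988 (CLK3) and -0.0025 to 0.0412 (HNRNPL) after HT+RT.

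Counts of members called moved by over 1.5 times as follows, and the cause was not tested. For FaDu RT the count of 0 became 3 by DESeq2, 4 with no filter, 2 with all libraries in 1 fit, 6 with the replicate block and 4 without FaDu replicate 1; for SAS RT the count of 1 became 3 by DESeq2, 3 with no filter and 4 with the block. With the block the FaDu counts became 19 for HT, 16 for HT+RT, 17 for HT+RT against RT and 2 for HT+RT against HT, and the SAS count for HT+RT against RT became 22. Without FaDu replicate 1 the FaDu counts were 16, 15 and 18 for HT, HT+RT and HT+RT against RT. Members altered between the controls were 2 in place of 4 with at least 10 counts in every library. With 1 library left out in turn, the members called ran from 0 to 2 for FaDu RT, 2 to 8 for FaDu HT, 5 to 11 for FaDu HT+RT, 3 to 14 for FaDu HT+RT against RT, 0 to 1 for SAS RT, 10 to 14 for SAS HT, 11 to 13 for SAS HT+RT, 11 to 12 for SAS HT+RT against RT, 24 to 29 for the controls, 5 to 9 for the interaction for HT and 8 to 10 for that against RT. For radiation added to heat they ran from 0 to 0 in either type. The members altered ran from 0 to 1 for FaDu HT, 1 to 1 for FaDu HT+RT, 2 to 3 for SAS HT, 2 to 4 for SAS HT+RT, 3 to 4 for the controls and 2 to 3 for the interaction for HT.

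Where numbers did not pair, the block gave 17 for SAS HT, 29 for the controls and 10 for the interaction for HT, with correlations from 0.04 to 0.23, -0.03 to 0.12 and 0.03 to 0.49. The members added were HNRNPUL2 for SAS HT, HNRNPR for the controls, and SRSF1 and CLK3 for the interaction. Beyond these and the members named in the report, the block changed no other call. With a library left out, the group of 2 shares the spread estimated over all groups of the fit. Depth limits SRSF12 and HNRNPCL1 to HNRNPCL4 most, and 3 replicates a group limit all small differences.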
